A study of Sus scrofa with 12 samples.

Results

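The 45 genes described here make the small RNAs that guard the germline genome (piRNAs) or carry out meiosis, and they were read for N6-methyladenosine (m6A) in boar sperm before and after freezing. They came from a fixed list of 48 gene symbols of piRNA biogenesis, PIWI and Tudor domain proteins, the synaptonemal complex, meiotic recombination and cohesion, and germ-cell RNA binding. HORMAD2, MLH3 and PRDM9 were not found by symbol in the RefSeq annotation used, which left 45 of 20678 genes with an mRNA. For each of them, every m6A peak lying on an mRNA exon of the same strand was taken from the peak list of each sample.

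Sperm came from 3 Duroc boars, described as mature and fertile. In fresh sperm (Fs), part of each ejaculate went straight into liquid nitrogen for RNA extraction. Frozen-thawed sperm (Fts), the other part, was cooled step by step, diluted in a lactose and egg yolk extender, given glycerol, frozen in straws and thawed. Sperm pellets were treated with Triton X-100 against somatic cells before RNA extraction. Total RNA was depleted of ribosomal RNA, broken into short fragments and pulled down with an antibody to m6A (IP), and 3 IP samples per group each gave 1 list of peaks, called against the input library of that sample. The methods of the study describe Fs and Fts as a paired design, with the semen of each boar split between both. The labels number the samples 1 to 3 in each group and do not say that a number stands for the same boar, so the comparisons are unpaired unless stated, and the spread between samples may be partly technical.

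piRNAs are small RNAs carried by PIWI proteins, and they silence transposons in male germ cells. They are made and amplified in nuage, a dense granule beside the mitochondria in which Tudor domain proteins bind methylated PIWI proteins. In meiosis, cohesins and HORMAD proteins build the axis of each chromosome, the synaptonemal complex zips homologous chromosomes together, and breaks in the DNA are repaired as crossovers. Both programmes run in the testis, long before ejaculation. Sperm are transcriptionally nearly silent, and much of their RNA is taken to be left over from earlier stages. m6A is placed on adenosines, mostly within the motif RRACH, where R is A or G and H is A, C or T.

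A peak says that IP reads exceeded input reads over a stretch of exon in 1 sample. Its score is 10 times -log10 of the p-value given by the peak caller MACS, so a score of 13 stands for a p of 0.05 and a score of 50 for a p of 1e-05. It is a measure of how surely a peak was called in that library and not of how much of the mRNA was methylated. The study lists the reads of each library, but the peak files hold no read counts and no value here was scaled to depth. A transcript with few reads can lack a peak at any level of methylation. For the same reason, fewer cells that carry a transcript and less of that transcript per cell cannot be told apart.

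The exons below held the recurrent peaks on which the comparison of Fs with Fts turned. They are read from the Sscrofa11.1 (susScr11) assembly in the sense of the transcript, with each RRACH in capitals. The first 5 had a peak in all 3 Fts samples and in none of the Fs samples.
DDX4, the 153-nt exon 15 of 23, chr16:34961260-34961412, plus strand: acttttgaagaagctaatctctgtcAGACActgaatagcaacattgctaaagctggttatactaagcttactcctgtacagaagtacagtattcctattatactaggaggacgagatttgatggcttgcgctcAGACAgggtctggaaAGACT
PIWIL2, the 141-nt exon 14 of 23, chr14:6600647-6600787, plus strand: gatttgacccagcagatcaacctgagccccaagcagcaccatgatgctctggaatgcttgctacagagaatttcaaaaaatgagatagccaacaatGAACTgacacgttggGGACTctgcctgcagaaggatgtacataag
TDRD9, the 222-nt exon 4 of 37, on a scaffold not placed on a chromosome, chrUn_NW_018084979v1:2417881-2418102, plus strand: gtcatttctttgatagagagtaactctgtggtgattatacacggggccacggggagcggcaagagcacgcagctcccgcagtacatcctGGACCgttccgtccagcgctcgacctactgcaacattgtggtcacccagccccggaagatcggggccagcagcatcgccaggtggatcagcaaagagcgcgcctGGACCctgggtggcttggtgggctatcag
HORMAD1, the last 44 nt of exon 10 of 15, chr4:98461195-98461238, plus strand: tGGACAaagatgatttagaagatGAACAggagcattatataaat
PIWIL1, the 112-nt exon 4 of 22, chr14:24756286-24756397, minus strand: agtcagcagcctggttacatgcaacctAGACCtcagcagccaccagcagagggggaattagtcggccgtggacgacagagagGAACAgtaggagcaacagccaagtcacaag

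A pair of exons of SYCP2, a protein of the lateral element of the synaptonemal complex, went opposite ways. The first had a peak in all 3 Fs samples only and the second in all 3 Fts samples only.
SYCP2, the 156-nt exon 35 of 42, chr17:59881642-59881797, minus strand: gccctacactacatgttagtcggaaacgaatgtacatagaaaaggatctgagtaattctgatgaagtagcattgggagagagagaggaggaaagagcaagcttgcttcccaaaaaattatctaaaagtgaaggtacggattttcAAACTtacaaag
SYCP2, the 143-nt exon 9 of 42, chr17:59946890-59947032, minus strand: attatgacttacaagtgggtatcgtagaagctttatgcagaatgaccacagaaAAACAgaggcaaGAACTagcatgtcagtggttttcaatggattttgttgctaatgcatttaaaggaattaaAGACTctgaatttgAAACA

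The last pair had a peak in 5 samples, all but Fts3, and is shown as the contrast.
SYCP1, the 93-nt exon 27 of 33, chr4:105627418-105627510, minus strand: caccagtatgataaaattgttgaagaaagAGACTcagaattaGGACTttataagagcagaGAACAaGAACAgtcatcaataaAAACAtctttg
MSH5, the 129-nt exon 13 of 25, chr7:23868044-23868172, plus strand: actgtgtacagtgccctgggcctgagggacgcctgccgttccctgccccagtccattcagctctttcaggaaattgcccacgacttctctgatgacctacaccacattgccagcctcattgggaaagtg

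RRACH occurred 3 times in the exon of DDX4, 2 times in those of PIWIL2, TDRD9, HORMAD1 and PIWIL1, 5 times in that of SYCP1 and 0 times in that of MSH5. The SYCP2 exons held 1 RRACH (exon 35) and 4 (exon 9). The motif is short and common. Among internal coding exons of the whole annotation within 5 nt of the same length, 89.7% held at least 1 RRACH for the length of the DDX4 exon, 87.9% for PIWIL2, 95.2% for TDRD9, 53.9% for the 44 nt of HORMAD1 and 86.3% for MSH5. The share was 82.9% for PIWIL1, 89.8% and 87.8% for SYCP2 exons 35 and 9, and 77.8% for SYCP1. The mean number of RRACH in exons of like length was 1.44 for SYCP1, 2.11 for SYCP2 exon 9 and 2.26 for DDX4. It was 1.70 for PIWIL1 and 0.735 for HORMAD1, and all of these were below the numbers in the printed stretches. The mean was 2.10 for PIWIL2, 3.25 for TDRD9, 2.29 for SYCP2 exon 35 and 1.93 for MSH5, each above the number in the exon. These matches are descriptions and were not tested.

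Peaks on the germline genes were more numerous in every Fts sample than in any Fs sample. There were 16, 19 and 18 peaks in Fs1 to Fs3 (17.7 ± 1.53, SD, n = 3) and 26, 46 and 40 in Fts1 to Fts3 (37.3 ± 10.3, SD, n = 3). The groups did not overlap, the means differed by 19.7 peaks, and the Fts mean was 2.11 times the Fs mean. An exact permutation test of 3 against 3 samples cannot give a two-sided p under 0.1, so absence of overlap is the most that this design can show. Over all 20678 genes the same ratio was 1.21, with 6818, 8819 and 8724 peaks in Fs and 8482, 10369 and 10681 in Fts, and there the groups overlapped. Per 100 genes both sets were level in Fs, at 39.3 ± 3.39 peaks for the germline genes and 39.5 ± 5.48 for all genes, and apart in Fts, at 83.0 ± 22.8 against 47.8 ± 5.80 (SD, n = 3). The difference between these ratios was not tested. The 4 genes called below, DDX4, PIWIL2, TDRD9 and HORMAD1, were picked by a rule that separates the groups. Leaving them out therefore had to narrow the separation. Without them, Fts1 had fewer peaks than any Fs sample, and the groups overlapped. Fts2 and Fts3 still had more peaks than every Fs sample.

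**Figure D1:**
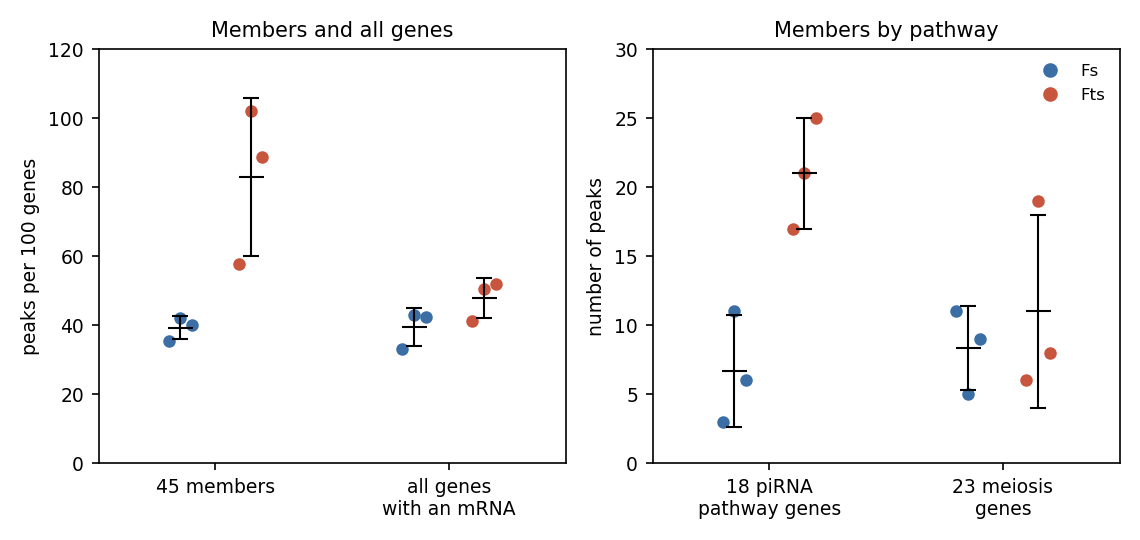
Left, m6A peaks per 100 genes (vertical axis) on the 45 germline genes and on all 20678 genes with an mRNA; right, number of peaks (vertical axis) on the 18 piRNA pathway genes and the 23 meiosis genes. Points are samples (blue Fs, red Fts), horizontal lines are means and bars are SD of 3 samples: the germline genes lie at 35.6 to 42.2 in Fs and 57.8 to 102 in Fts, and only the piRNA pathway genes keep the groups apart on the right.

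More genes carried a peak, and more carried several. A peak was found on 11, 15 and 15 of the 45 genes in Fs (24.4%, 33.3% and 33.3%) and on 16, 26 and 22 in Fts (35.6%, 57.8% and 48.9%). Of all genes, 25.4% to 30.9% had a peak in Fs and 26.8% to 31.7% in Fts. The lowest Fts sample, with 16 genes, was only 1 gene above the highest Fs sample. Several peaks on 1 gene were seen for 5, 4 and 3 genes in Fs and for 6, 11 and 9 in Fts. Over all genes these numbers also rose on average, from 1176, 1704 and 1740 in Fs to 1734, 2196 and 2254 in Fts, with overlap.

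Summed over the samples, 37 genes had a peak somewhere: 16 in both groups, 15 in Fts only (40.5%) and 6 in Fs only (16.2%). Of the 15 Fts-only genes, 7 had a peak in 1 sample only. A peak in at least 2 samples of one group and in none of the other was seen for 8 genes toward Fts and 5 toward Fs. The share of all genes under this 2-sample rule was not computed, so these counts have no background. Of the 11705 genes of the whole annotation with a peak somewhere, 23.7% had it in Fts only and 23.4% in Fs only, and the difference from the germline genes was not tested. SYCP2 alone had a peak in all 6 samples, 7 genes had one in 5 samples and 8 in a single sample. A peak in all 3 samples of the group was seen for 10 genes in Fts and for 4 in Fs. The share of all genes with this pattern was not computed. A peak in any sample was found on 82.2% of the germline genes and 56.6% of all genes. The 8 genes without any peak were HENMT1, which methylates the end of piRNAs, SYCP3, SYCE2 and TEX12 of the synaptonemal complex, SPO11, which makes the meiotic DNA breaks, MEIOB, the cohesin subunit REC8 and the RNA-binding protein DAZL. Their longest coding transcripts had a median of 1575.5 nt, against 3705 nt for the 37 genes with a peak. Over the 45 genes, transcript length and the number of samples with a peak had a Spearman correlation of 0.364 and a Pearson correlation of 0.249, as a description across genes that share 6 libraries.

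**Figure D2:**
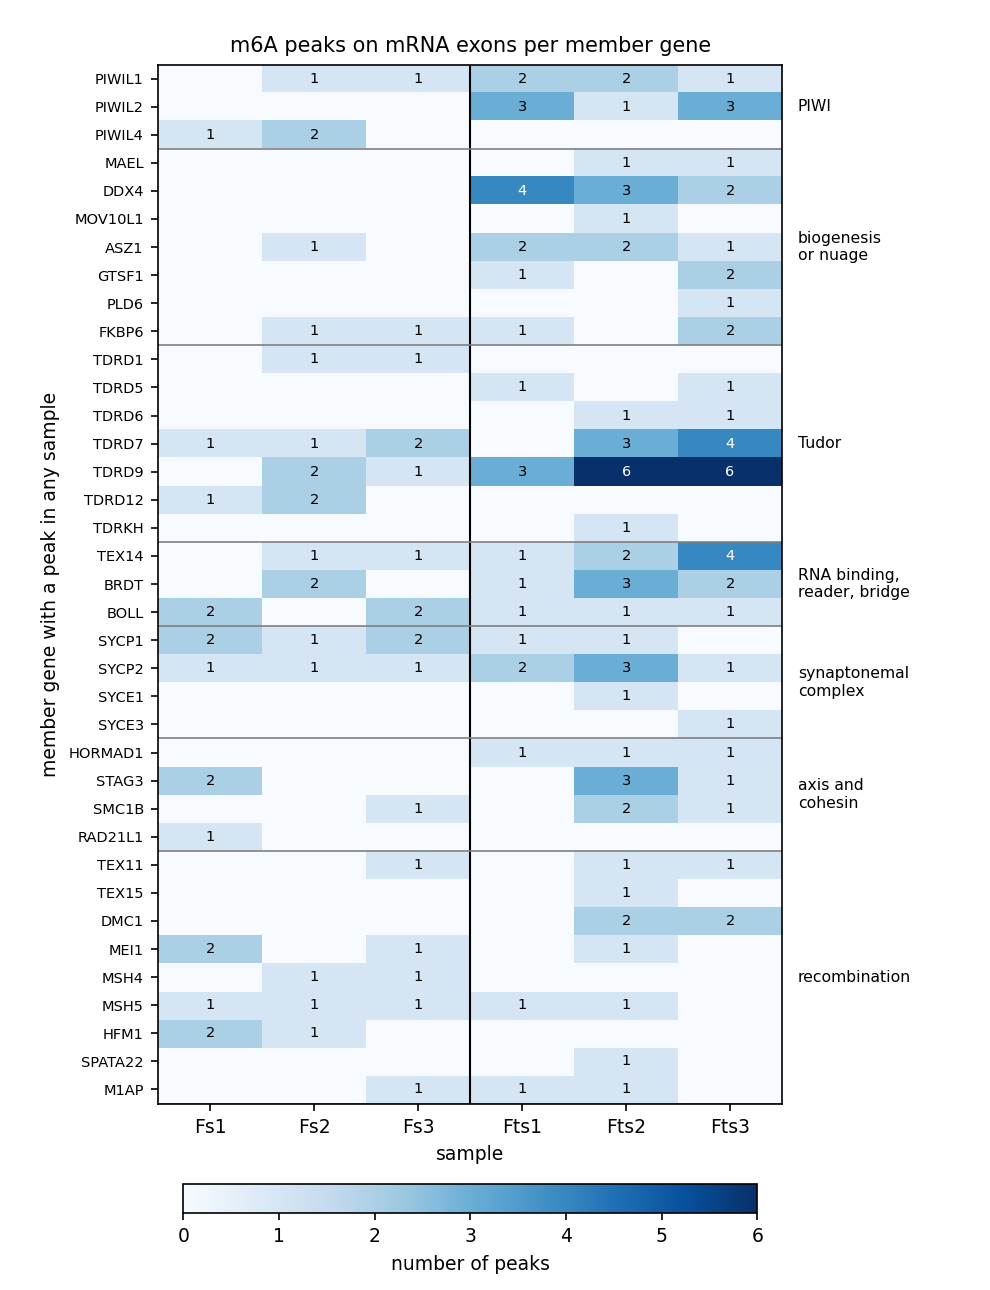
Number of m6A peaks (colour and printed digit, 0 left blank) on the mRNA exons of each of the 37 genes with a peak (rows, grouped by role) in each sample (columns; 3 Fs left of the line, 3 Fts right). DDX4, PIWIL2 and HORMAD1 are blank in all 3 Fs samples and filled in all 3 Fts samples, and TDRD9 reaches 6 peaks in Fts2 and Fts3.

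Gene by gene, 4 of the 45 genes (8.89%) had more peaks in every Fts sample than in every Fs sample: DDX4, PIWIL2, TDRD9 and HORMAD1. None had more in every Fs sample. Of all genes with an mRNA, 5.08% were higher in Fts by this rule and 3.03% were higher in Fs. Among genes with a peak in any sample these shares were 8.98% and 5.36%, beside 10.8% of the 37 germline genes for Fts. The count of 4 is thus close to the background of genes that carry peaks, and it is not a result that sets the germline genes apart. With samples of equal number taken as pairs, 7 genes had more peaks in Fts in all 3 pairs, ASZ1, BRDT and TEX14 besides these 4. The share of all genes under this looser rule was not computed, so the 7 cannot be set against a background. Where peaks scoring below 50 were dropped, 1 gene met the rule. The count also varied with single samples: 9 genes met the rule without Fts1 and 7 without Fts3. For Fs, 2 genes met it without Fs1, 2 without Fs2 and 3 without Fs3. The rule is easier to meet with 1 sample left out. The share of all genes that meet it then was not computed.

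Of the PIWI proteins, PIWIL2, which acts early in spermatogenesis, had 0 peaks in each Fs sample and 3, 1 and 3 in Fts. All 7 lay in neighbouring coding exons, from exon 11 to exon 14. Exon 14, printed above, carried the highest score in each Fts sample, at 35.5, 161 and 88.9. PIWIL1, the main carrier of piRNAs in pachytene spermatocytes and round spermatids, had 0, 1 and 1 peaks in Fs and 2, 2 and 1 in Fts, so the groups touched at 1 peak. Exon 4 was peaked in Fts only, with scores of 12.6, 27.1 and 49.3. The other exons of PIWIL1 had low scores in Fs, 3.12 on exon 6 in Fs2 and 6.87 on exon 5 in Fs3. Exon 6 was also peaked in Fts1 and Fts2, with scores of 13.45 and 5.2. PIWIL4, the nuclear PIWI protein of fetal germ cells, went the other way, with 1, 2 and 0 peaks in Fs and 0 in each Fts sample, at scores of at most 7.33. The 3 PIWI genes together had 1, 3 and 1 peaks in Fs and 5, 3 and 4 in Fts, which touched at 3.

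Among the factors that build piRNAs and nuage, DDX4 (VASA), an RNA helicase and a standard marker of germ cells, had the widest separation in score. It had 0 peaks in each Fs sample and 4, 3 and 2 in Fts. Exon 15 was peaked in all 3 Fts samples with scores of 115, 203 and 188, and exon 10 with scores of 15.3, 12.8 and 45.8. DDX4 was the only germline gene that still met the no-overlap rule when only peaks with a score of at least 50 were kept.

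ASZ1, an ankyrin repeat protein that anchors nuage to mitochondria, had 0, 1 and 0 peaks in Fs and 2, 2 and 1 in Fts. The groups touched, and the single Fs peak, on exon 1 in Fs2, was 8 bp long with a score of 114. On the same exon, the Fts samples had peaks of 103, 105 and 54 bp with scores of 10.9, 29.2 and 77.5. The remaining factors were peaked in few samples. FKBP6 had a peak in 4 samples, Fs2, Fs3, Fts1 and Fts3, with scores from 4.50 to 17.9. Peaks appeared in Fts only for MAEL (Fts2 and Fts3), GTSF1 (Fts1 and Fts3), the helicase MOV10L1 (Fts2, score 69.7) and the mitochondrial nuclease PLD6 (Fts3, score 79.2). As a group, the 8 biogenesis and nuage factors had 0, 2 and 1 peaks in Fs and 8, 7 and 9 in Fts, without overlap.

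The Tudor domain proteins divided. TDRD9, a helicase needed to silence LINE-1 transposons, had 0, 2 and 1 peaks in Fs and 3, 6 and 6 in Fts. In Fs its peaks lay on exons 11 and 20, with scores of 8.27 to 13.97. The Fts peaks lay mostly between exons 2 and 8: exon 4 had scores of 35.6, 211 and 213 and exon 5 scores of 13.4, 15.7 and 20.2, and both were without a peak in Fs. No exon of TDRD9 was peaked in both groups. When neighbouring peaks were joined across exon junctions, TDRD9 no longer met the no-overlap rule.

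TDRD7, a Tudor protein of nuage and the chromatoid body, had 1, 1 and 2 peaks in Fs and 0, 3 and 4 in Fts, so the groups overlapped. Exon 2, at the start codon, was peaked in 5 samples with scores of 19.4, 22.8 and 23.6 in Fs and of 16.4 and 43.0 in Fts2 and Fts3. TDRD1 (Fs2 and Fs3) and TDRD12 (Fs1 and Fs2) were peaked in Fs only, at scores of at most 9.70 and 11.2. TDRD5 (Fts1 and Fts3), TDRD6 (Fts2 and Fts3) and TDRKH (Fts2) were peaked in Fts only, at scores of at most 9.36. The 7 Tudor genes had 2, 6 and 4 peaks in Fs and 4, 11 and 12 in Fts, which overlapped.

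**Figure D3:**
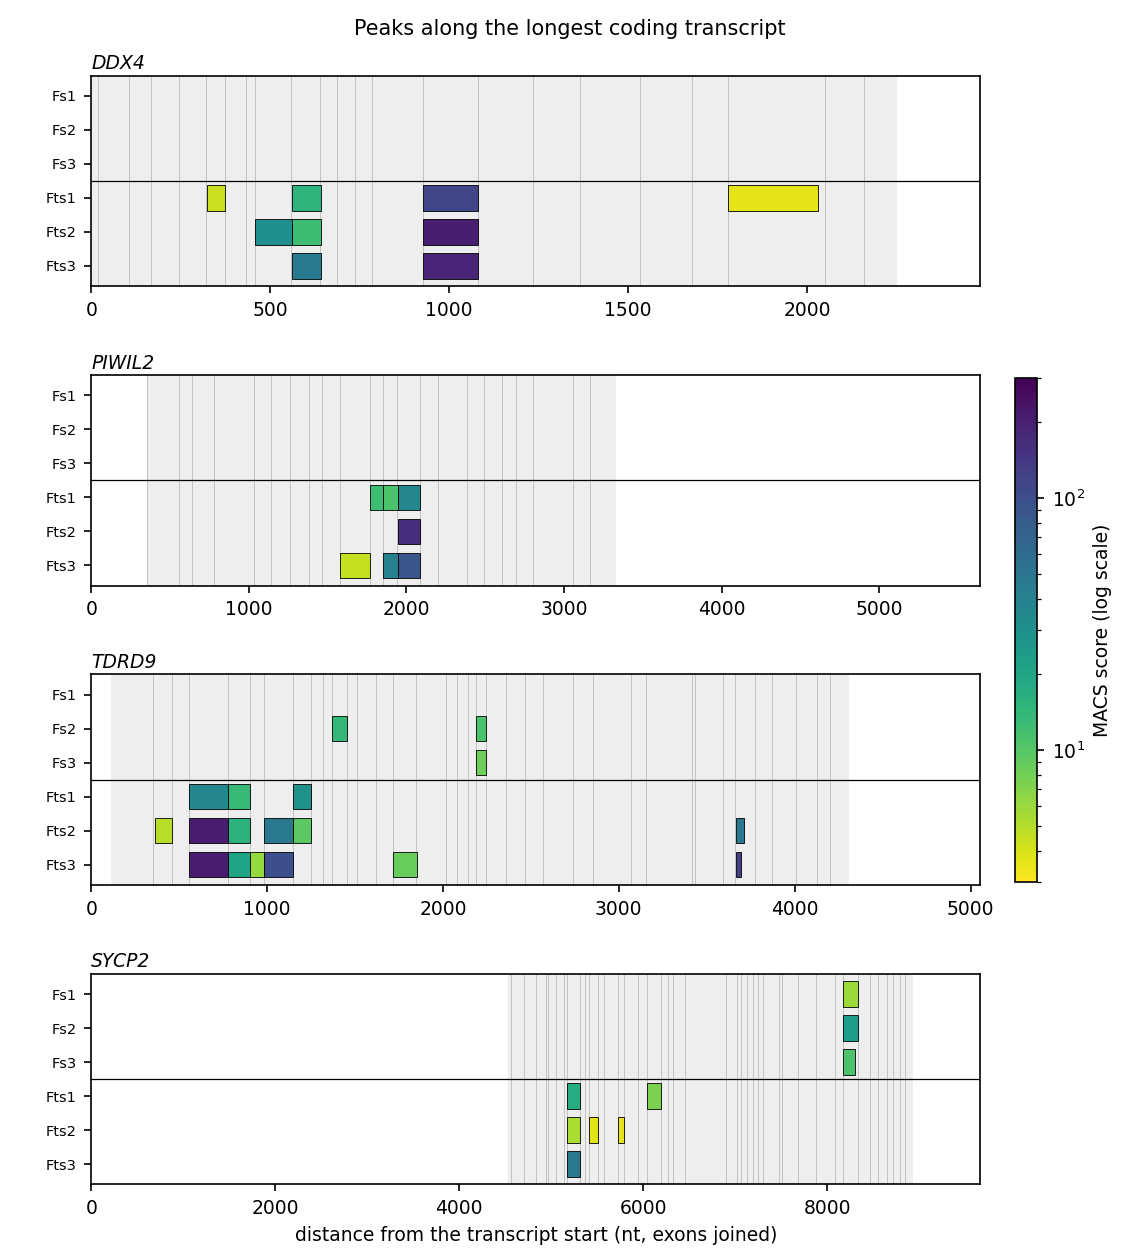
Peaks of DDX4, PIWIL2, TDRD9 and SYCP2 along the longest coding transcript, as distance from its start in nt with exons joined (horizontal axis), for the 6 samples (rows); grey is the coding sequence, thin lines are exon junctions and bar colour is the MACS score on a log scale. DDX4 and PIWIL2 carry bars in the Fts rows only, the Fts bars of TDRD9 gather in its first exons, and SYCP2 has 1 exon marked in all Fs rows and another in all Fts rows.

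Together the 18 piRNA pathway genes, of which 17 had a peak, had 3, 11 and 6 peaks in Fs (6.67 ± 4.04, SD, n = 3) and 17, 21 and 25 in Fts (21.0 ± 4.00, SD, n = 3), without overlap. DDX4, PIWIL2 and TDRD9, the 3 pathway genes already called higher in Fts, were picked by the no-overlap rule. Leaving them out therefore had to narrow the separation. Without them, Fts1 had fewer peaks than Fs2 over the remaining pathway genes, so the groups overlapped. Fts2 and Fts3 still had more peaks there than every Fs sample. The 23 meiosis genes, of which 17 had a peak, had 11, 5 and 9 in Fs (8.33 ± 3.06, SD, n = 3) and 6, 19 and 8 in Fts (11.0 ± 7.0, SD, n = 3), with overlap. The difference was 14.3 peaks for the piRNA pathway and 2.67 for meiosis, and the latter turned to -1.33 without Fts2. Whether the 2 differences are unequal was not tested.

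In the synaptonemal complex, the recurrent peaks of SYCP2 lay on different exons in Fs and Fts, while the most recurrent peak of SYCP1 lay on the same exon in both. SYCP2 carried a single peak in each Fs sample, against 2, 3 and 1 in Fts, so the groups touched. Exon 35 was peaked in all 3 Fs samples, with scores of 5.93, 24.1 and 11.1, and in no Fts sample. Exon 9 was peaked in all 3 Fts samples, with scores of 17.2, 5.38 and 47.3, and in no Fs sample. SYCP1, the transverse filament that joins the paired axes, had 2, 1 and 2 peaks in Fs and 1, 1 and 0 in Fts. Its exon 27 had scores of 21.2, 37.8 and 43.4 in Fs and of 9.23 and 22.1 in Fts1 and Fts2. Exon 13 of SYCP1 was peaked in Fs1 and Fs3 only, with scores of 5.26 and 23.05. SYCE1 (Fts2) and SYCE3 (Fts3), of the central element, had 1 peak each. The 7 genes of the complex had 3, 2 and 3 peaks in Fs and 3, 5 and 2 in Fts.

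On the chromosome axis, HORMAD1, which marks unpaired chromosomes and supports break formation, had 0 peaks in each Fs sample and exactly 1 in each Fts sample. It was the same 44 bp each time, with scores of 15.2, 19.6 and 17.5. At a minimum score of 20 HORMAD1 had no peak left. The meiotic cohesin subunits were irregular. STAG3 had 2, 0 and 0 peaks in Fs and 0, 3 and 1 in Fts, on different exons in each sample, and its exon 30 reached a score of 168 in Fs1 alone. SMC1B had a peak in Fs3, Fts2 and Fts3, and RAD21L1 in Fs1 only. The 5 axis and cohesin genes had 3, 0 and 1 peaks in Fs and 1, 6 and 3 in Fts, with overlap.

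None of the 11 recombination genes met the no-overlap rule. MSH5, a MutS protein that stabilises crossover intermediates, had 1 peak in every sample but Fts3, each time on exon 13, with scores of 5.57, 14.4 and 3.75 in Fs and of 33.2 and 8.03 in Fts1 and Fts2. MSH4, its partner, was peaked in Fs2 and Fs3 only, and the helicase HFM1 in Fs1 and Fs2 only. DMC1, the meiotic strand exchange protein, had 2 peaks in Fts2 and in Fts3, on exons 4 and 13 both times, and 0 in the other samples. The remaining genes with a peak were TEX11 (Fs3, Fts2 and Fts3), MEI1 (Fs1, Fs3 and Fts2), M1AP (Fs3, Fts1 and Fts2), TEX15 and SPATA22 (Fts2 only). The group had 5, 3 and 5 peaks in Fs and 2, 8 and 3 in Fts.

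Outside these pathways, TEX14, a protein of the bridges between germ cells, had 0, 1 and 1 peaks in Fs and 1, 2 and 4 in Fts. Its highest scores were 3.40 and 13.7 in Fs2 and Fs3 and 26.0, 34.2 and 62.9 in Fts. Exon 24 was peaked in Fts1 and Fts3, exon 25 in Fts2 and Fts3, and exon 32 in Fs3 and Fts2. BRDT, a bromodomain reader of acetylated histones in spermatids, had 0, 2 and 0 peaks in Fs and 1, 3 and 2 in Fts, and its exon 17 was peaked in all 3 Fts samples only, at scores of 3.86, 6.68 and 3.13, each under the p 0.05 score. BOLL, an RNA-binding protein related to DAZL, had 2, 0 and 2 peaks in Fs and 1 in each Fts sample. A peak at the stop codon of BOLL, on exon 10, was called in 5 samples, with scores of 11.0 and 3.76 in Fs1 and Fs3 and of 21.6, 25.4 and 4.61 in Fts. With DAZL, this group of 4 genes had 2, 3 and 3 peaks in Fs and 3, 6 and 7 in Fts, which touched at 3.

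Merged over the 6 lists, the peaks covered 96 regions of these genes, and 53 of them were seen in 1 sample only. A peak in all 3 Fts and no Fs sample was found in 9 regions (9.38%), on exons of DDX4 (10 and 15), TDRD9 (4 and 5), PIWIL2, PIWIL1, HORMAD1, SYCP2 and BRDT. Of all 26095 regions on mRNA exons, 6.82% had this pattern. The opposite pattern was found in 1 region (1.04%), SYCP2 exon 35, against 3.63% of all regions. No region was peaked in all 6 samples, against 3.31% of all regions, and 4 regions (BOLL exon 10, MSH5 exon 13, SYCP1 exon 27 and TDRD7 exon 2) were peaked in 5. The 9 regions became 3 at a minimum score of 20, and 20 without Fts1. The single Fs region was lost at a score of 20 and became 4, 2 and 3 without Fs1, Fs2 or Fs3. The shares of all regions under these settings were not computed.

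**Figure D4:**
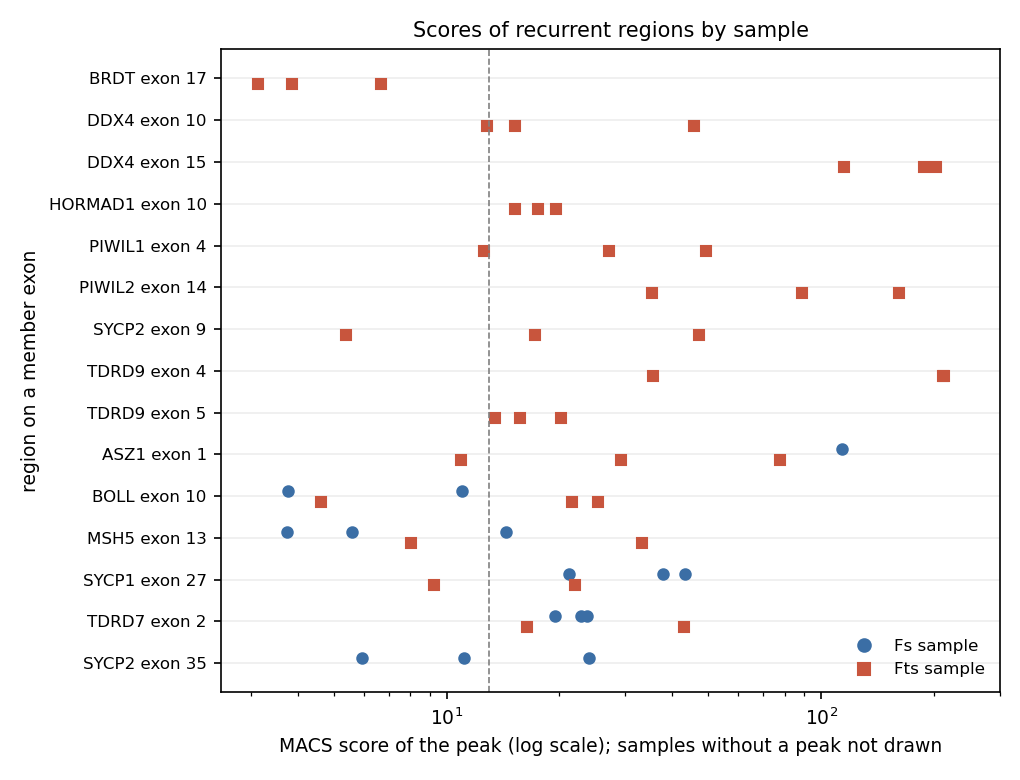
MACS score (horizontal log axis) of each peak in the 15 regions that either had a peak in all 3 samples of one group and none of the other or were peaked in at least 4 samples (rows); blue circles are Fs samples, red squares Fts samples, samples without a peak are not drawn, and the dashed line is the score of p 0.05. In the upper 9 rows there are only red squares, in the lowest row only blue circles.

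Many of these peaks were weak. Of 165 peaks in all, scores ran from 3.12 to 213 and 92 were under the p 0.05 score. The median score was 6.50, 8.83 and 6.09 in Fs and 13.1, 14.2 and 11.6 in Fts, without overlap. Over all genes the medians were 11.9, 11.4 and 10.7 in Fs and 13.1, 16.2 and 13.4 in Fts, also without overlap. Peaks with a score of at least 50 numbered 1 in each Fs sample and 1, 4 and 8 in Fts, and the groups touched there. Restricted to an equal number of 8015 highest-scoring peaks per sample, the germline genes still differed by 12.7 peaks between the group means, while the meiosis genes among them turned to -0.333. The excess of 19.7 peaks fell to 9.67 when only peaks with a score of at least 20 were kept and to 3.33 at a score of at least 50.

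Most peaks lay inside the coding sequence. Their midpoints fell in the coding sequence for 135 peaks, within 100 nt of the start codon for 15 and of the stop codon for 8, in the 3'UTR for 4 and in an exon outside the longest coding transcript for 3. The share in the coding sequence was 81.3%, 73.7% and 72.2% in Fs and 88.5%, 89.1% and 77.5% in Fts, with overlap. Over all genes it was 63.8% to 65.3% in Fs and 69.6% to 70.5% in Fts. Of the 165 peaks, 110 (66.7%) began and ended exactly at the borders of an annotated exon, so the position of a peak within these exons is not resolved. At least 1 RRACH was held, for Fs, by 78.8% ± 8.68 of the peaks and, for Fts, by 87.9% ± 4.97 (SD, n = 3), against 80.5% ± 0.367 and 86.1% ± 0.505 of the peaks of all genes. For the germline genes the groups overlapped.

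A deposited list of sites that differ between Fts and Fs touched 1 of the 45 genes, TEX14, which is 2.22% against 7.41% of all genes. Its 2 sites lay at chr12:34850496-34850801 on exon 18 and chr12:34860602-34861337 on exon 14, both in the coding sequence. No sample had a peak on either exon. None of DDX4, PIWIL2, TDRD9 and HORMAD1 held a site.

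The wider pathways were read from a pair of lists of related genes. Of 20 other piRNA pathway genes, 7 had a peak, 0 met the no-overlap rule in either direction, and the peaks numbered 4, 6 and 3 in Fs and 5, 4 and 6 in Fts. Of 50 other meiosis genes 41 were found and 32 had a peak, with 15, 25 and 20 peaks in Fs and 15, 25 and 28 in Fts. Among them HSF2BP, which brings BRCA2 to meiotic breaks, had 0 peaks in each Fs sample and 3, 2 and 5 in Fts. SUN2, a nuclear envelope protein that tethers telomeres, had 0 in Fs and 2, 4 and 3 in Fts. BRCA1, a repair protein also used in dividing body cells, had 1, 2 and 3 in Fs and 0 in each Fts sample. Thus 2 of the 41 genes met the no-overlap rule toward Fts and 1 toward Fs, beside 5.08% and 3.03% of all genes. In both lists the groups overlapped in total peaks.

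Markers of the cell types that semen could hold were counted by the same rules. Spermatid and sperm markers had 5, 5 and 6 peaks in Fs and 5, 7 and 5 in Fts, with a peak on 8 of 15 genes found. The protamine gene PRM1, TNP1 and AKAP4, which define late spermatids, had none in any sample. Their relatives PRM2 (Fts2, score 3100) and TNP2 (Fts3, score 2075) had a single peak each. ZPBP met the no-overlap rule toward Fts and the acrosin gene ACR toward Fs. Spermatogonia markers had 2, 2 and 0 peaks in Fs and 2, 3 and 6 in Fts, on 6 of 9 genes found. Sertoli and Leydig cell markers had 0, 2 and 3 and then 1, 2 and 1, on 5 of 8. Leukocyte markers had 2, 3 and 5 and then 1, 2 and 5, on 7 of 10, and the leukocyte gene PTPRC had 0, 2 and 0 and then 0, 0 and 1. Epithelial markers had 1, 1 and 2 in Fs and 6, 7 and 6 in Fts, without overlap, on 4 of 6, while EPCAM and KRT5 had none. Stromal and endothelial markers had 7, 8 and 8 in Fs and 6, 2 and 3 in Fts, without overlap, on 5 of 6. Single markers met the no-overlap rule toward Fts for ID4 (spermatogonia), SOX9 (Sertoli cells), KRT8 (epithelium) and COL1A2 (stroma), and toward Fs for VIM and VWF (stroma and endothelium). By this rule 5.08% of all genes with an mRNA were higher in Fts and 3.03% in Fs. Calls of single markers, ZPBP and ACR included, are therefore not read as results about a cell type. The epithelial peaks in Fts lay mostly on the keratins KRT8, KRT18 and KRT19. CDH1, another epithelial marker, went the other way, with 0, 1 and 1 peaks in Fs and 0, 0 and 1 in Fts. In total peaks, epithelial markers were thus higher in Fts, as the piRNA pathway genes were, and stromal and endothelial markers were lower. The part of either in the result for the piRNA pathway genes was not tested.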

How the data were processed

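MeRIP-seq of boar sperm gave IP and input libraries of 3 Fs and 3 Fts samples. The authors trimmed reads with cutadapt 1.9.3, aligned them to susScr11 with HISAT2 and called peaks of each IP sample against its input with MACS, and they deposited the peaks on mRNAs, whose score is 10 times -log10 p. They also deposited 1 list of sites that differ between Fts and Fs, used here by position only. Genes and transcripts came from RefSeq Annotation Release 106 of Sscrofa11.1. A peak belonged to a gene if at least 1 bp of it lay on a same-strand mRNA exon. Regions were merged over the 6 lists. Feature classes used the peak's midpoint on the longest coding transcript.

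A gene was called where every sample of one group had more peaks than every sample of the other. The code, in Python 3.11.15 with pandas 2.3.3 and pysam 0.24.0, was tested on simulated data. Genes were named in full if called, peaked in all 3 samples of a group or holding a site. Other genes of the wider lists were named only if called. Some marker genes, and the members peaked in fewer samples whose scores are given, were named after their values were seen. The members, lists and markers were chosen with earlier results of these data known. The read numbers that the study lists for each library were not used, and input libraries were not analysed here.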

Additional observations from a re-analysis of the deposited data

How the results depend on the processing

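Over 19 other settings, 93 of 123 values were classed as close to the main value, 27 as moved and 3 as changed in sign. The close class was wide. It held the meiosis difference, which fell from 2.67 to 0.333 at a score of at least 20. It also held the peak excess, which fell from 19.7 to 12.7 with equal numbers of highest-scoring peaks. The settings for regions and for the separate pathways were chosen after seeing the data. At a score of at least 20, the excess of peaks in Fts fell from 19.7 to 9.67 and that on piRNA pathway genes from 14.3 to 7.67, with 3 regions peaked in all 3 Fts samples only and 0 in all 3 Fs samples only. At a score of at least 50, these values were 3.33, 3.67, 1 and 0, the excess of genes with a peak was 2.67, 1 gene (DDX4) was higher in Fts, the coding share differed by 29.2 points instead of 9.31, and the meiosis genes turned to -0.667. With equal numbers of highest-scoring peaks the meiosis genes stood at -0.333. With 2 samples of a group sufficing, 26 regions were peaked in Fts only and 7 in Fs only. The share of all regions under this looser rule was not computed, so these counts have no background. The motif GGACT was held by 15.0% of peaks instead of 83.3% for RRACH.

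Leaving out 1 sample at a time gave 4 to 9 genes higher in Fts and 0 to 3 higher in Fs, a peak excess of 15.3 to 25.3, 0 to 2 regions peaked in every sample, 9 to 20 regions for Fts and 1 to 4 for Fs. The excess ranged from 12.3 to 16.5 peaks for the piRNA pathway and from -1.33 to 5.17 for meiosis. With the equal numbers taken as a replicate block, 7 genes were higher in Fts in all 3 pairs (ASZ1, BRDT, DDX4, HORMAD1, PIWIL2, TDRD9 and TEX14). The deviations of same-numbered samples correlated at 0.0103, -0.0143 and 0.0129, which gives no sign of pairing in the peaks and does not show that the samples are unpaired. The block result is a count without a test, since a sign-flip test over 3 pairs cannot go below 0.25. The shares of all genes and regions under the block rule or with 1 sample left out were not computed. The causes of these moves were not tested beyond the smaller number of peaks that a minimum score leaves. Peaks were not scaled to library depth, which limits what an absent peak can show.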

Other observations

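Among the 165 peaks, 3 were at most 10 bp long. They were an 8-bp peak of ASZ1 in Fs2 with a score of 114, a 3-bp peak of MEI1 in Fts2 with a score of 19.2 and a 4-bp peak of SPATA22 in Fts2 with a score of 6.71. They are far shorter than the median of 123 to 142 bp per sample for these genes.

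The highest score among the genes of the wider lists that met the no-overlap rule was on HSF2BP, whose best peaks scored 25.01, 223 and 732 in Fts1 to Fts3, beside no peak in Fs. BRCA1 had best scores of 77.7, 77.7 and 71.3 in Fs1 to Fs3 and no peak in Fts.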
